A study of Mus musculus with 8 samples.

Results

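The genes described here are 36 interferon-stimulated genes (ISGs) of the mouse, chosen by name from a list of antiviral effectors, interferon-induced transcription factors, nucleic acid sensors and ubiquitin-like modifiers, and looked up in a gene count table of 54532 gene IDs. All 36 were found, and all 36 passed the filter on low counts that left 15305 genes for testing, so no member was lost. The RNA came from bone marrow B cells, isolated with magnetic beads against a surface protein of the B cell lineage, from mice that were either ovariectomized (OVX, 3 libraries) or sham-operated (Sham, 3 libraries). Ovariectomy removes the ovaries and with them the main source of estrogen, and is used as a surgical model of the menopause, in which bone is lost. Sham animals go through the operation but keep their ovaries. No treatment or transgene is named for either group, and the strain, the age and the time since surgery of the animals behind these RNA libraries are not given in their labels. Nothing in the labels says that each library came from its own mouse, so the p-values below measure the spread between these libraries, which may be technical in part. The comparison of OVX with Sham asks how B cells differ after ovaries are lost, and here how their interferon-stimulated genes differ.

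Interferons are secreted proteins, and cells release those of type I on sensing viral nucleic acid. Type I interferons bind the receptor chains IFNAR1 and IFNAR2, the kinases JAK1 and TYK2 then phosphorylate STAT proteins, STAT2 among them, and these join IRF9 to form a complex that enters the nucleus and binds the interferon-stimulated response element (ISRE) in front of its target genes. Type II interferon works through its own receptor and pairs of STAT proteins, which bind the gamma-activated sequence (GAS). The products of the target genes block viral entry, destroy viral RNA, stop translation or sense more nucleic acid, and cells keep a low level of many of them at rest.

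Promoter windows from RefSeq, each running from 250 bases before to 50 bases after an annotated transcript start in the mouse assembly GRCm38.p6 (mm10), were matched to 26 of the 36 members. The ISRE core was searched on both strands as GAAA, 2 bases of any kind, and GAAA again, which reads as TTTC, 2 bases and TTTC on the other strand. It was found in 13 of the 26 members (50%) and in 3.99% of the 27025 genes with a window. The GAS core, TTCNNNGAA, which reads the same on both strands, was found in 7 of the 26 (26.9%) and in 9.55% of all genes, and 3 members held both. Matches of either motif were counted whether or not they overlapped another. Windows were not found for Oas2, Mx1, Mx2, Dhx58, Zbp1, Usp18, Parp9, Parp14, Ifi27l2a and Rtp4.

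The stretches around the ISRE core are shown for 7 members that differ in their values below: 5 that were far higher in 1 library (Oas3, Ifit1, Isg15, Rsad2 and, less so, Trim30a), the nearly flat Stat2, and Gbp2, which followed another library. Each reads 5′ to 3′ along the gene's own strand, and the capitals mark each 4-base GAAA or TTTC of the core.
Oas3, chr5:120777710-120777749, minus strand: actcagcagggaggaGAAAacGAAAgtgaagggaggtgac
Ifit1, chr19:34640770-34640828, plus strand: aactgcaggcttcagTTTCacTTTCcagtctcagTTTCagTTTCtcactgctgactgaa
Isg15, chr4:156200860-156200911, minus strand: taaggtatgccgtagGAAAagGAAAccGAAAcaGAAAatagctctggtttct
Rsad2, chr12:26456548-26456587, minus strand: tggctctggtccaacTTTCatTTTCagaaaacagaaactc
Trim30a, chr7:104465205-104465244, minus strand: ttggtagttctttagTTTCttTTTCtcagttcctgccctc
Stat2, chr10:128270261-128270300, plus strand: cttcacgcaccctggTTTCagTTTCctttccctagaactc
Gbp2, chr3:142620589-142620628, plus strand: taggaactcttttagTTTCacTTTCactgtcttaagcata
Isg15 carried 3 overlapping matches in a run of GAAA repeats, and Ifit1 carried a pair of matches a few bases apart. The other 6 members with the core were Eif2ak2, Gbp3, Ifih1, Ifit3, Ifitm3 and Oas1a.

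**Figure D1:**
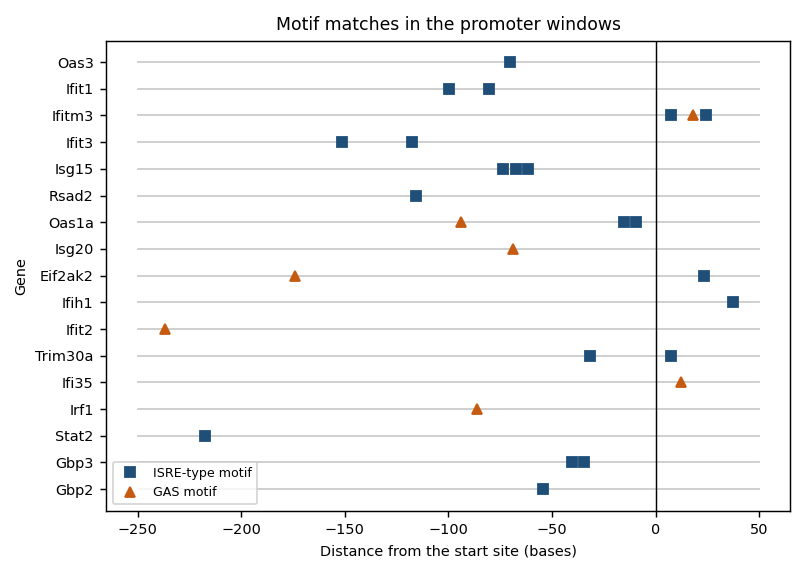
Distance in bases from the transcript start (x axis) of each ISRE core (squares) and GAS core (triangles) in the promoter windows of the members that hold either, with grey lines for the window searched. The ISRE core was present in 13 of 26 members and the GAS core in 7.

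The libraries held 23838775 to 33136701 counts each, and the smallest count of any member in any library was 80, for Ifi44 in Sham replicate 1. No member was at 0, where 0 counts would have allowed a share of up to 1.26e-05% in the shallowest library. Levels are given as CPM, the standard unit of counts relative to library size, after scaling by edgeR's trimmed mean of M values. They are not divided by gene length, so they compare libraries and not genes. The B cell marker Cd79a, a chain of the B cell receptor complex, was high (1547 to 1881 CPM) in all 6 libraries. Sham replicate 3 stood apart in its markers of other cells: the 16 neutrophil markers together took 0.963% of its counts, against 0.258% and 0.353% in the remaining Sham libraries and 0.418%, 0.113% and 0.122% in the OVX libraries, in replicate order.

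Of the 36 members, 35 had a lower fitted level in OVX and 1, Irf9, a higher one. The log2 fold changes (OVX over Sham) had a median of -0.27 and ran from -1.02 to 0.04. With libraries scaled to 12 B cell genes, which shifts the median of all genes by -0.10, all 36 were lower, and the split over all genes at an unadjusted p under 0.05 moved from 60.8% to 92.3% lower. The median over all 15305 genes was -0.01. No member was called at an adjusted p under 0.05 by the quasi-likelihood test of edgeR, adjusted over all genes by the Benjamini-Hochberg method, in which 0.0% of all genes were called and the lowest adjusted p was 0.811. None of the 36 reached an unadjusted p under 0.05 in either direction either, where 2.28% of all genes did so as lower in OVX and 1.47% as higher. DESeq2 and limma-voom also called none, and DESeq2 gave 1 member, Ifih1, an unadjusted p under 0.05 as lower, where it did so for 551 of 27416 genes. In no member did the OVX libraries all lie below, or all above, the Sham libraries, against 4.12% and 4.33% of all genes. The lower OVX levels were therefore within the spread between libraries for every member.

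Most of the spread lay in 1 library, since 33 of the 36 members (91.7%) were highest in Sham replicate 3, against 18.3% of all genes. The other 3, Gbp2, Gbp3 and Samd9l, were highest in Sham replicate 2. Summed over the members, Sham replicate 3 stood at 2583 CPM, while the remaining Sham libraries stood at 1627 and 1900.0 CPM and the OVX libraries at 1775, 1750.1 and 1805 CPM. Against the mean of the remaining Sham libraries, the members in Sham replicate 3 were higher by a median of 1.92-fold (range 0.966 to 3.80), where the median over all genes was 0.997. The ratio was at least 2 in 16 members (44.4%, against 4.32% of all genes) and at least 1.5 in 25 (69.4%, against 8.60%). Set against the mean of the other 5 libraries, those 25 members were at least 1.5-fold higher in Sham replicate 3, against 8.92% of all genes. No member was so in any other library, where 1.94% (OVX replicate 2) to 12.1% (Sham replicate 2) of all genes were. All 36 also had a smaller SD among the OVX than among the Sham libraries, as did 67.9% of all genes.

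**Figure D2:**
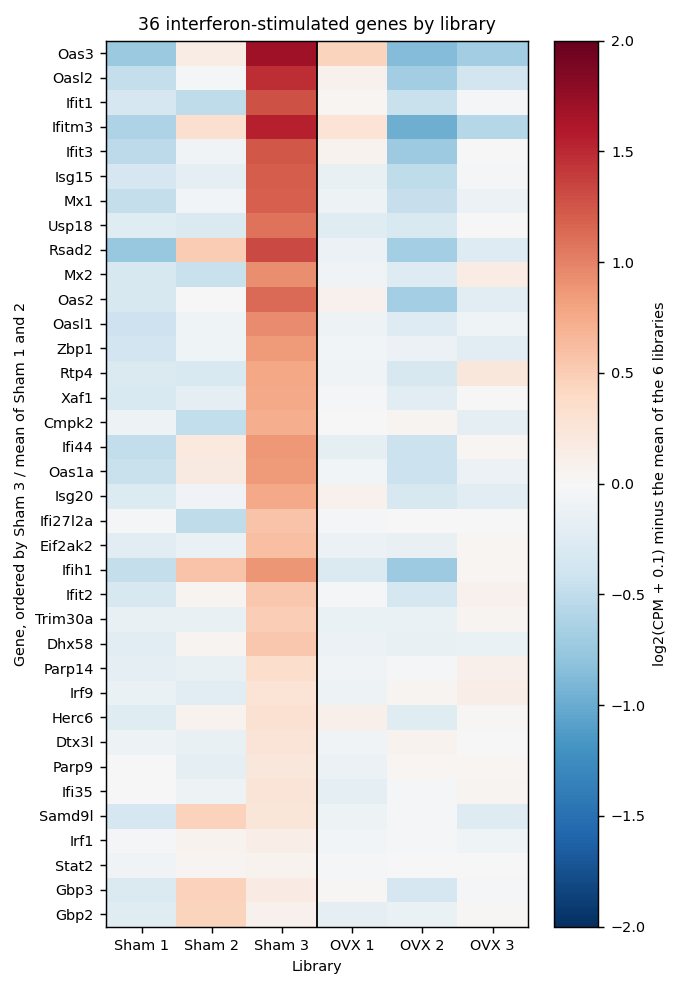
Colour shows log2(CPM + 0.1) of each of the 36 members (rows, ordered by their ratio of Sham replicate 3 to the remaining Sham libraries) minus its mean over the 6 libraries (columns). The column of Sham replicate 3 is the highest in 33 members.

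Markers of neutrophils and most markers of plasmacytoid dendritic cells and of T and NK cells were highest in this library too, but not those of all other cells. All 16 neutrophil markers were highest in Sham replicate 3, at 2.69 to 3.98 times the mean of the remaining Sham libraries, and none was at 0 in every library. Of the 10 plasmacytoid dendritic cell markers with enough reads (of 11), 7 were highest there, 2 in Sham replicate 2 and 1 in Sham replicate 1. Their ratios to the mean of the remaining Sham libraries ran from 0.405 to 4.79, and 1 marker was lowest in Sham replicate 3. The list, which shares Ly6c2 with the monocyte and macrophage list, took 0.0215% of the counts of Sham replicate 3. The remaining Sham libraries had 0.00602% and 0.0129%, and the OVX libraries 0.00918%, 0.00383% and 0.00505%. Plasmacytoid dendritic cells are the most potent producers of type I interferon, and Siglech, a surface lectin that marks them, stood at 14.8 CPM in Sham replicate 3, at 2.66 and 8.37 CPM in replicates 1 and 2, and at 5.78, 0.917 and 1.12 CPM in the OVX libraries. Of 15 T and NK cell markers 10, and of 11 tested erythroid markers 6, were highest in Sham replicate 3. Markers of T and NK cells took 0.00963% in Sham replicate 3 and 0.00473% to 0.00847% in the remaining libraries. Erythroid markers took 0.0439% in Sham replicate 3 and 0.0193% to 0.0570% in the rest, with the most in Sham replicate 2. Of 14 monocyte and macrophage markers 10 were highest in Sham replicate 2 and 3 in Sham replicate 3. Their median ratio of Sham replicate 3 to the remaining Sham libraries was 0.506. For the 12 mature B cell markers it was 0.727, and 11 were highest in Sham replicate 2. The B cell (0.975% to 1.11%), pro-B and pre-B cell (0.240% to 0.445%), plasma cell (0.116% to 0.161%), megakaryocyte (0.0146% to 0.0346%), endothelial (0.0241% to 0.0273%) and cell cycle (0.238% to 0.362%) lists did not have their highest share in that library. The part of these cells in the members' levels was not tested, and in bulk RNA fewer cells of a type and less RNA per cell cannot be told apart. Between OVX replicates 1 and 2 the median ratio was 3.90 for the neutrophil markers and 1.15 for the members (range 0.894 to 2.52).

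**Figure D3:**
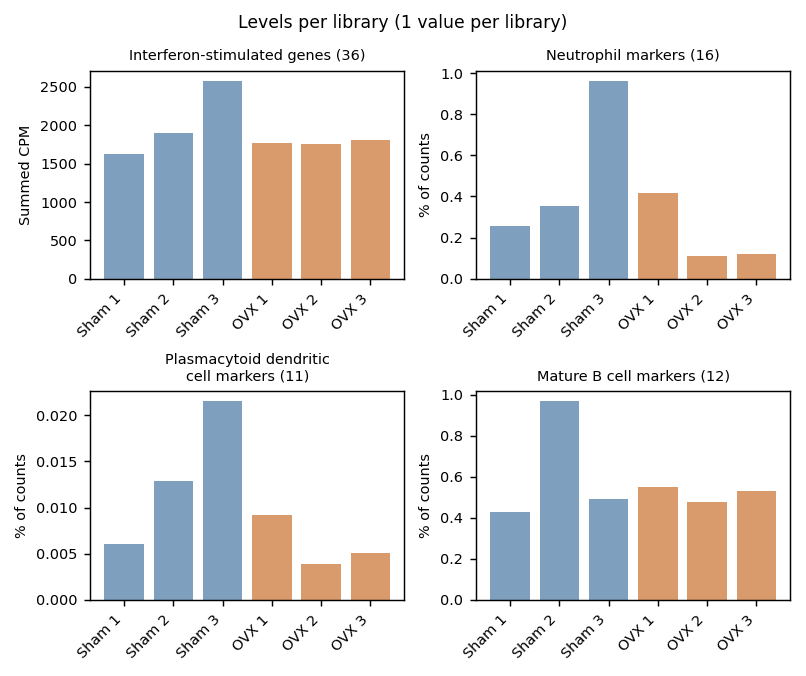
Bars, 1 per library and from 0, show the summed CPM of the 36 members and the share of counts, in percent, taken by neutrophil, plasmacytoid dendritic cell and mature B cell markers, with Sham in blue and OVX in orange. Sham replicate 3 is the highest bar for the members (2583 CPM), the neutrophil markers (0.963%) and the plasmacytoid dendritic cell markers (0.0215%), and Sham replicate 2 for the mature B cell markers (0.969%).

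**Figure D4:**
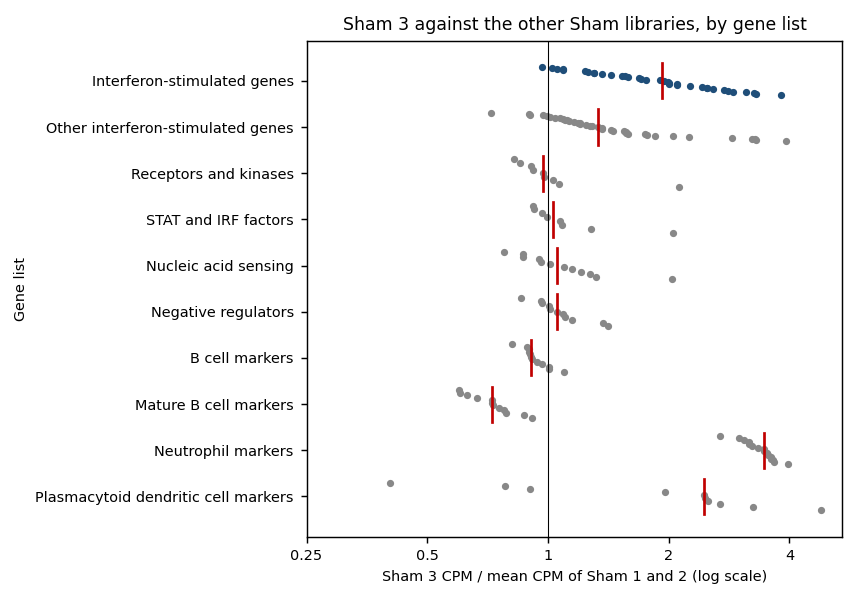
Each point is 1 tested gene, placed by its level in Sham replicate 3 over the mean of Sham replicates 1 and 2 (log axis), for the members, the other interferon pathway lists and 4 marker lists, and red lines are medians. The members have a median of 1.92, and the neutrophil markers range from 2.69 to 3.98.

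IFIT1 binds viral RNA that lacks the host's cap methylation, and Ifit2 and Ifit3 are genes of the same family. Below, levels are in CPM and run through replicates 1, 2 and 3 of Sham and then of OVX. Ifit1 (ENSMUSG00000034459) stood at 4.85, 4.29 and 14.95 in Sham and at 6.31, 4.44 and 5.96 in OVX. Ifit3 stood at 8.48, 11.6 and 29.1, then at 12.9, 7.37 and 12.3. Ifit2 stood at 20.2, 26.4 and 36.9, then at 24.9, 19.7 and 26.9. In each of these genes Sham replicate 3 was above the other 5 libraries, which overlapped. Ifit1 averaged 8.03 ± 6.00 in Sham and 5.57 ± 0.991 in OVX (SD, n = 3 each), a log2 fold change of -0.53 (SE 0.48, adjusted p = 0.815 by edgeR's quasi-likelihood test), which became 0.28 when Sham replicate 3 was left out. Ifit3 went from -0.60 to 0.10 and Ifit2 from -0.23 to 0.02. The genes are neighbours on chromosome 19, and reads of Ifit3 may be shared with its near copy Ifit3b.

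The 2′-5′-oligoadenylate synthetases sense double-stranded RNA and make the messenger that turns on the ribonuclease RNase L. Their levels differed severalfold between libraries. Oas3 (ENSMUSG00000032661), whose ISRE core is printed above, stood at 7.42, 13.8 and 40.4 in Sham and at 17.0, 6.77 and 7.68 in OVX. Its highest library exceeded its lowest 5.97-fold, and the OVX libraries themselves differed 2.52-fold between replicates 1 and 2. The means were 20.5 ± 17.5 and 10.5 ± 5.69 (SD, n = 3), the log2 fold change was -0.97 (SE 0.63, adjusted p = 0.811 by edgeR's quasi-likelihood test), and without Sham replicate 3 it was -0.03.

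Oasl2 (ENSMUSG00000029561), an OAS-like protein with ubiquitin-like domains, followed the same order of libraries, at 9.32, 12.7 and 36.3 in Sham and 13.8, 7.97 and 10.1 in OVX. Its means were 19.5 ± 14.7 and 10.6 ± 2.93 (SD, n = 3) and its log2 fold change was -0.88 (SE 0.50, adjusted p = 0.811 by edgeR), or -0.07 without Sham replicate 3. Oas2 stood at 16.8, 21.3 and 46.1, then at 22.3, 13.1 and 18.1, so that Sham replicate 3 was again the outlying library. Oas1a and Oasl1 were highest there as well, at 33.3 and 33.8 CPM, and lay between 13.2 and 20.8 CPM in the remaining libraries. Over the 5 genes the median log2 fold change was -0.65, and -0.07 without that library. Oas1a has near copies, such as Oas1g, with which it may share reads.

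Mx1 (ENSMUSG00000000386) and Mx2 are genes of the Mx family of dynamin-like GTPases. Mx1 stood at 14.3, 19.1 and 45.8 in Sham and at 18.6, 14.5 and 18.4 in OVX, and Mx2 at 7.63, 7.002 and 18.2, then at 9.11, 7.97 and 10.5. Each was more than 2-fold higher in Sham replicate 3 than in the remaining Sham libraries (2.74-fold and 2.49-fold). Mx1 had a log2 fold change of -0.62 (SE 0.40, adjusted p = 0.811 by edgeR) and was at 0.03 without that library. Mx2 turned from -0.25 to 0.32, since its OVX libraries all lay above Sham replicates 1 and 2.

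Gbp2 and Gbp3 did not share the peak in Sham replicate 3. They encode guanylate-binding proteins, GTPases that attack the vacuoles of intracellular microbes and answer strongly to type II interferon. Other genes of this family are on the list of ISGs outside the members and are not reported here by name. Gbp2 (ENSMUSG00000028270) stood at 15.9, 25.6 and 20.02 in Sham and at 16.5, 17.0 and 19.2 in OVX. Gbp3 (ENSMUSG00000028268), its neighbour on chromosome 3, stood at 31.0, 52.5 and 42.6, then at 38.4, 30.0 and 37.3. Both peaked in Sham replicate 2, and Sham replicate 3 was the second highest library. In Sham replicate 3 they stood at 0.966 and 1.02 times the mean of the remaining Sham libraries. Their log2 fold changes were -0.22 (SE 0.18) and -0.26 (SE 0.19), stayed at -0.25 in both without Sham replicate 3, and were -0.03 and -0.07 without Sham replicate 2. Sham replicate 2 was also the library with the most mature B cell marker counts, at 0.969% against 0.428% to 0.548% in the remaining 5, and the most monocyte and macrophage marker counts, at 0.322% against 0.0897% to 0.235%. The part of these markers in the levels of the Gbp genes was not tested.

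Among the transcription factors, Stat2 and Irf1 varied little between libraries. Stat2 (ENSMUSG00000040033), which carries the interferon signal from the receptor into the nucleus, stood at 118, 129 and 129 in Sham and at 120.2, 124 and 123 in OVX. The highest and lowest of these differed only 1.10-fold, although its promoter window holds the ISRE core. Its log2 fold change was -0.04 (SE 0.06, adjusted p = 0.891 by edgeR's quasi-likelihood test). Irf1 (ENSMUSG00000018899), a factor induced above all by type II interferon, stood at 123, 134 and 140.1, then at 122, 126 and 119, with group means of 132 ± 8.50 and 123 ± 3.21 (SD, n = 3). Its lowest Sham library lay within the OVX range, and its log2 fold change was -0.11 (SE 0.07, adjusted p = 0.811 by edgeR).

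Irf9 (ENSMUSG00000002325), the DNA-binding partner of STAT2, was the member with the highest fold change. It stood at 111, 104 and 146 in Sham and at 113, 126 and 133 in OVX, so that the OVX libraries lay between the second and the highest Sham library. The log2 fold change was 0.04 (SE 0.14, adjusted p = 0.945 by edgeR). It was 0.20 without Sham replicate 3, and it turned to -0.07 when libraries were scaled to B cell genes.

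The 4 sensors of nucleic acid and their partners had a median log2 fold change of -0.33, and of 0.00 without Sham replicate 3. Ifih1 (ENSMUSG00000026896), also called MDA5, senses long double-stranded RNA in the cytosol and had the lowest unadjusted p of the members (0.0767, adjusted p = 0.811 by edgeR's quasi-likelihood test). It stood at 7.89, 16.3 and 20.4 in Sham and at 8.95, 6.59 and 11.2 in OVX. Here Sham replicates 2 and 3 were both above all OVX libraries while Sham replicate 1 lay among them, and the log2 fold change of -0.73 (SE 0.36) was -0.45 without Sham replicate 3. Dhx58, or LGP2, which modulates the sensing by MDA5, stood at 25.1, 30.2 and 42.4, then at 26.7, 26.2 and 26.6, with an SD of 0.259 among the OVX libraries. Zbp1, a sensor of Z-form nucleic acid that can trigger cell death, stood at 18.4, 22.7 and 43.3, then at 23.0, 22.1 and 20.8. Eif2ak2, or PKR, a kinase that halts translation, stood at 42.3, 45.4 and 74.9, then at 45.7, 44.6 and 50.7. The last 3 genes were 1.53, 2.10 and 1.71 times higher in Sham replicate 3 than in the remaining Sham libraries, and without it their log2 fold changes lay between -0.07 and 0.09.

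ISG15 is a ubiquitin-like protein joined to newly made proteins after interferon, Usp18 removes it and also blocks the type I receptor, and Herc6 is a ligase that attaches it in mice. Isg15 (ENSMUSG00000035692), with its run of ISRE cores, stood at 6.92, 7.601 and 20.5 in Sham and at 7.89, 6.10 and 8.65 in OVX. Its log2 fold change was -0.63 (SE 0.42, adjusted p = 0.811 by edgeR), and 0.05 without Sham replicate 3, in which it was 2.82-fold higher than in the remaining Sham libraries. Usp18 stood at 9.70, 9.43 and 24.6, then at 9.72, 9.34 and 11.4, and was 2.58-fold higher in that library. Herc6, at 15.6, 19.4 and 22.8, then at 19.7, 15.6 and 18.7, was 1.30-fold higher there, so the 3 genes of 1 modification system shared the peak library but not its size.

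Parp9, Parp14 and Dtx3l lie together on chromosome 16 and encode members of the ADP-ribosyltransferase family and the ubiquitin ligase that works with PARP9. Parp14 (ENSMUSG00000034422) stood at 141, 145 and 206 in Sham and at 153, 156 and 172 in OVX. Parp9 (ENSMUSG00000022906) stood at 70.4, 61.7 and 83.3, then at 65.7, 73.2 and 72.8, and Dtx3l (ENSMUSG00000049502) at 88.8, 86.6 and 114, then at 91.0, 100.2 and 96.3. Sham replicate 3 was the highest library for all 3 genes, at 1.43, 1.26 and 1.30 times the mean of the remaining Sham libraries and 1.20, 1.14 and 1.14 times the next highest library. Their log2 fold changes were -0.03 (SE 0.15), -0.03 (SE 0.11) and -0.01 (SE 0.11), with adjusted p from 0.961 to 0.986 by edgeR's quasi-likelihood test, and 0.15, 0.09 and 0.12 without that library. The annotated spans of Dtx3l and Parp9 overlap, and the strand setting of the counting is not given in the sources used here, so reads in the overlap cannot be assigned with certainty.

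Trim30a (ENSMUSG00000030921), a mouse TRIM protein that dampens inflammatory signalling, was among the 4 members with most reads. It stood at 165, 165 and 257 in Sham and at 166, 166 and 188 in OVX. The log2 fold change was -0.17 (SE 0.18, adjusted p = 0.822 by edgeR) and became 0.07 without Sham replicate 3. Related genes of the Trim30 cluster may share its reads.

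Among the enzymes that act on nucleotides and RNA, Rsad2 (ENSMUSG00000020641), or viperin, which makes a chain-terminating nucleotide, stood at 6.03, 14.6 and 25.7 in Sham and at 9.44, 6.38 and 8.59 in OVX. Its means were 15.5 ± 9.87 and 8.14 ± 1.58 (SD, n = 3) and its log2 fold change was -0.93 (SE 0.47, adjusted p = 0.811 by edgeR), or -0.36 without Sham replicate 3. The Sham libraries lay on both sides of the OVX libraries, with Sham replicate 1 the lowest of all 6. Cmpk2, the neighbouring gene on chromosome 12 and a mitochondrial nucleotide kinase, stood at 48.7, 37.2 and 86.1, then at 52.0, 54.0 and 45.8. Although the genes lie side by side, Sham replicate 2 was the lowest library for Cmpk2 and the second highest for Rsad2. Isg20, an exonuclease for single-stranded RNA, stood at 9.53, 10.98 and 19.5, then at 12.2, 9.20 and 9.95.

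Ifitm3 (ENSMUSG00000025492), a membrane protein that blocks the fusion of viruses in endosomes, had the lowest fold change of all members. It stood at 11.01, 21.3 and 50.3 in Sham and at 20.7, 8.60 and 11.4 in OVX, with means of 27.5 ± 20.4 and 13.6 ± 6.31 (SD, n = 3). The highest library exceeded the lowest 5.85-fold, and OVX replicate 1 exceeded OVX replicate 2 by 2.40-fold. The log2 fold change was -1.02 (SE 0.56, adjusted p = 0.811 by edgeR's quasi-likelihood test), or -0.26 without Sham replicate 3. In Ifitm3 and Oas3 the 3 highest libraries were Sham replicate 3, Sham replicate 2 and OVX replicate 1. The neutrophil, plasmacytoid dendritic cell and T and NK cell marker sums had the same 3 on top. The same libraries were the 3 highest in Oas1a, Oas2, Oasl2, Mx1, Dhx58, Zbp1, Herc6, Rsad2 and Isg20. They were so in Gbp3 too, although its peak was in Sham replicate 2. The remaining members, such as Ifit3 and Oasl1, did not share these 3 highest libraries. How many of all genes share them was not counted. The part of neutrophils or of the other cells in these levels was not tested.

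The last 6 members have varied or less settled roles. Samd9l (ENSMUSG00000047735), a restrictor of poxviruses and of cell growth and the member with most reads, stood at 261, 454 and 391 in Sham and at 308, 326 and 277 in OVX. Its log2 fold change was -0.28 (SE 0.19, adjusted p = 0.811 by edgeR), stayed at -0.25 without Sham replicate 3 and was -0.10 without Sham replicate 2, its highest library. Ifi27l2a stood at 109.9, 78.2 and 166, then at 109, 112 and 111, so that the Sham libraries lay on both sides of 3 nearly equal OVX values (118 ± 44.2 against 111 ± 1.71, SD, n = 3). Xaf1, which opposes an inhibitor of apoptosis, stood at 19.0, 20.5 and 39.7, then at 23.1, 20.1 and 23.7. Ifi44, Rtp4 and Ifi35 were also highest in Sham replicate 3, at 8.80, 27.4 and 46.9 CPM, with ratios to the remaining Sham libraries of 1.99, 2.10 and 1.23. Reads of Ifi27l2a may be shared with its near copy Ifi27l2b.

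Leaving out Sham replicate 3, and so comparing 3 OVX with 2 Sham libraries, changed the direction for most members. Then OVX was higher for 21 and lower for 15 of them, the median log2 fold change was 0.03, none was called, and none had an unadjusted p under 0.05 in edgeR's quasi-likelihood test, against 0.812% of all genes higher and 0.988% lower. The OVX libraries all lay above both remaining Sham libraries for 4 members, Mx2, Irf9, Parp14 and Dtx3l, against 7.08% of all genes. Leaving out Sham replicate 1 did the opposite: all 36 were lower in OVX, with a median of -0.46, and 14 had an unadjusted p under 0.05, where 9.0% of all genes did as lower. For 13 members the OVX libraries all lay below both remaining Sham libraries, against 17.5% of all genes. None of these was called either, the lowest adjusted p being 0.273. Without Sham replicate 2 the median was -0.41, and without OVX replicate 1, 2 or 3 it was -0.30, -0.25 or -0.32.

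**Figure D5:**
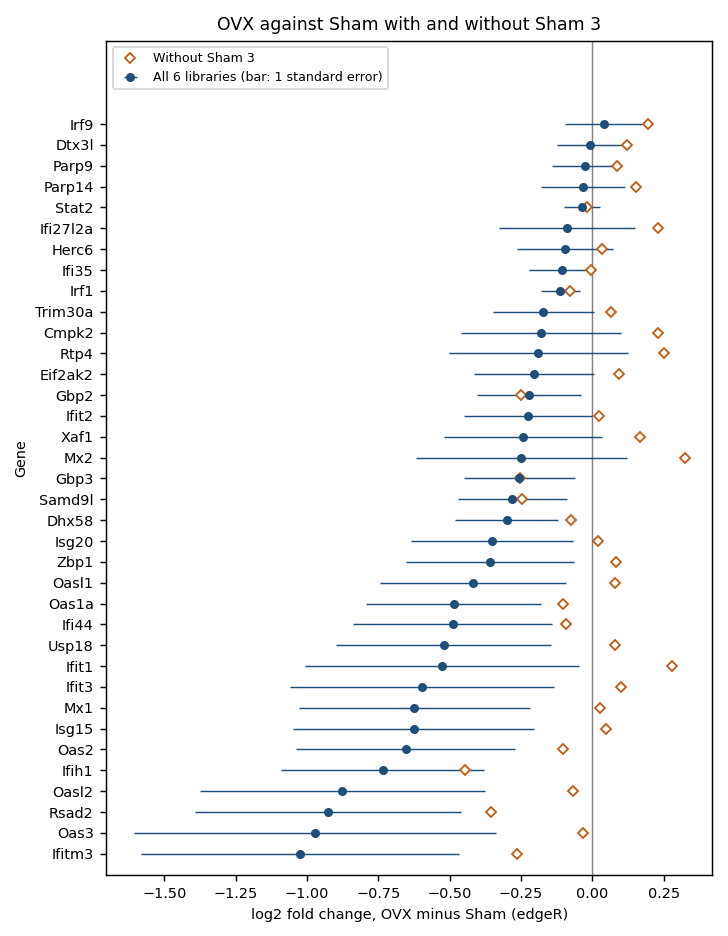
Log2 fold change (OVX over Sham, edgeR) of each member from all 6 libraries (filled circles, bars of 1 standard error) and without Sham replicate 3 (open diamonds). With all libraries 35 members lie below 0, and without Sham replicate 3 the count is 15.

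The rest of the pathway was read from lists of its other parts. Of 14 interferon genes none had enough reads to be tested, and 13 had no read in any library. The exception was Ifng, type II interferon, with 0, 4 and 19 reads in Sham and 12, 11 and 1 in OVX. Transcripts of the other interferon genes were not detectable at this depth. The 9 receptor chains and Janus kinases were 2 higher and 7 lower (median -0.10), none at an unadjusted p under 0.05 in edgeR, and 6 of them were highest in Sham replicate 2 rather than 3. Ifnar1, the first chain of the type I receptor, stood at 129, 136 and 136 in Sham and at 133, 137 and 142 in OVX. Ifnlr1, the type III receptor chain, had the largest difference (-0.76, adjusted p = 0.811 by edgeR), at 3.63, 7.42 and 11.7, then at 7.24, 3.10 and 3.15.

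Of 9 STAT and IRF genes outside the members, 8 were tested, with 5 higher and 3 lower and none at an unadjusted p under 0.05 in edgeR. Irf7, the factor that amplifies type I interferon production and is itself an ISG, stood at 19.3, 33.6 and 54.0 in Sham and at 27.9, 19.9 and 24.9 in OVX, 2.04-fold higher in Sham replicate 3 than in the remaining Sham libraries. Its log2 fold change of -0.56 was -0.14 without that library. Its ratio in Sham replicate 3 lay within the range of the OAS genes (1.94 to 3.80).

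Among 12 genes of nucleic acid sensing upstream of interferon, 5 were higher and 7 lower, and 1 had an unadjusted p under 0.05 in edgeR. That gene was Cgas, the sensor of cytosolic DNA, which stood at 3.63, 4.26 and 8.04 in Sham and at 3.26, 2.36 and 3.02 in OVX. Every OVX value lay below every Sham value. Its log2 fold change was -0.88 (SE 0.34, adjusted p = 0.811 by edgeR), and -0.46 without Sham replicate 3. Of 11 negative regulators tested (of 12), 6 were higher and 5 lower, and Pias1, an inhibitor of STAT signalling, was the single one with an unadjusted p under 0.05 (0.0435 by edgeR). Pias1 stood at 105, 102 and 99.6, then at 113, 113 and 112, a small difference (log2 0.14, SE 0.06) with no overlap. Socs3, a feedback inhibitor of Janus kinases, had the largest fold change of that list (log2 -0.96, SE 0.51), at 3.33, 11.2 and 6.23, then at 5.78, 2.33 and 2.63, with overlapping groups.

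A further 39 tested ISGs, of 41 on a list outside the members, were mostly lower as well, 31 against 8 higher, with a median log2 fold change of -0.22. None had an unadjusted p under 0.05 in edgeR. Sham replicate 3 was the highest library for 28 of them (71.8%), with a median ratio to the remaining Sham libraries of 1.33 (range 0.722 to 3.92), and 7 of the 39 reached 2-fold. Without it 14 were higher and the median was -0.08. The lowest fold change was that of Slfn1, a Schlafen gene of lymphocytes and myeloid cells, at 6.33, 11.2 and 34.3 in Sham and 14.8, 2.79 and 2.84 in OVX (log2 -1.35, SE 0.83). Its OVX replicate 1 stood well above OVX replicates 2 and 3, as the neutrophil and plasmacytoid dendritic cell marker sums did.

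Members with and without the promoter motif overlapped in their height in Sham replicate 3, and whether the motif bears on this height was not tested. The 10 members without a window, Mx1, Mx2, Usp18 and Oas2 among them, are in neither group. The 13 members with the ISRE core in their window had a median ratio to the remaining Sham libraries of 1.94 (range 0.966 to 3.80), and the 13 members with a window but no core had 1.58 (range 1.09 to 3.29). The ranges overlapped over most of their length, and the core was present in the lowest (Gbp2) and the highest (Oas3) member of all. No match says only that these letters are absent from this window.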

How the data were processed

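The RNA-seq values used here are the raw gene counts deposited by the authors, whole numbers per Ensembl gene ID for 3 Sham and 3 OVX libraries. Per the labels, RNA was extracted with Trizol and libraries were made with a TruSeq kit, while the study's methods name RNA-Solv or RNeasy for sequenced RNA, so the extraction is uncertain. The submitters' processing notes name the build mm10, CASAVA and Bowtie 0.12.2, and the counting tool, annotation and strand setting are not given in the sources used here. Depth was 23838775 to 33136701 counts. No column of the table belonged to another sample. The ChIP-seq libraries of the series were not analysed here. Symbols were matched for 54409 of 54532 IDs.

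Genes passing edgeR's filterByExpr (15305) were scaled by the trimmed mean of M values and tested as OVX against Sham with the quasi-likelihood test (edgeR 4.0.16, limma 3.58.1, R 4.3.3), with Benjamini-Hochberg adjustment over all genes and a threshold of 0.05. The study's methods give no RNA-seq test. No block was used, since same-numbered libraries did not deviate together (correlations of -0.410, -0.189 and -0.279). No libraries were duplicates (chi-square per degree of freedom of 16.5 to 58.4 between replicates of a group and 9.46 to 74.1 between groups). Sham replicate 1 was nearer to the OVX libraries (12.1, 9.46 and 13.0) than to Sham replicates 2 and 3 (58.4 and 34.8). The alternatives were DESeq2 1.42.0, limma-voom, other scalings, no filter, a replicate block and leaving out each library. The fit was tested on simulated data with 200 changed genes. There edgeR called 112 of those changed 2-fold and 165 of those changed 4-fold, with 13 and 17 unchanged genes called. With no gene changed, edgeR called 1 and DESeq2 26. Real differences of 2-fold, and some of 4-fold, can thus be missed with 3 libraries a group. The simulated counts were drawn for each gene on its own, with no library set apart as Sham replicate 3 was, so more may be missed in the real data. The members, the pathway lists and the marker lists were chosen with earlier results of these data known. Genes named by rule were members at an unadjusted p under 0.05 or with groups that did not overlap (none), the 4 members with the lowest and the 4 with the highest log2 fold change, the 4 with the widest range over libraries and the 4 with the most CPM, and in each pathway list the genes at an unadjusted p under 0.05 and the one with the largest fold change. Other genes given in detail were chosen after their values were seen. Ratios of Sham replicate 3 to other libraries are descriptions with no test. Promoter sequences are RefSeq's, for GRCm38.p6. Some genes of the lists are not reported here by name.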

Additional observations from a re-analysis of the deposited data

How the results depend on the processing

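No member, pathway gene or other gene was called under any of the 14 alternatives, in which the lowest adjusted p of any gene was 0.273 (without Sham replicate 1). The median log2 fold change of the members, -0.27, was -0.38 with scaling to B cell genes, between -0.46 and 0.03 when each library was left out (positive without Sham replicate 3) and between -0.29 and -0.24 under the rest. The count of members lower at an unadjusted p under 0.05, 0 in the reported test, was 1 with DESeq2 (551 of 27416 genes), 5 without a filter on low counts (905 of 27416 genes), and 0 to 14 with each library left out, 14 without Sham replicate 1 (1444 of 16051 genes). The count with all OVX libraries below the Sham libraries was then 0 to 13 (13 without Sham replicate 1, 1 without OVX replicate 2), and above them 0 to 4. Of 154 alternative values for the 11 members named by rule, 142 kept their direction and 12 turned it, in Irf9, Dtx3l, Parp9, Parp14 and Trim30a (-0.17 in the reported test). Members outside these 11 turned too without Sham replicate 3, such as Isg15 (-0.63 to 0.05) and Ifit1 (-0.53 to 0.28). Irf9 was at -0.072 with B cell gene scaling and at -0.059 to 0.20 with each library left out. With each library left out Dtx3l ran from -0.084 to 0.12, Parp9 from -0.13 to 0.088, Parp14 from -0.13 to 0.15 and Trim30a from -0.28 to 0.066. Dtx3l was at 0.0023 with limma-voom. With the replicate number as a block, 206 genes instead of 574 had an unadjusted p under 0.05, the members' median was -0.24, Dtx3l was at 0.00071, and no call changed, but the numbers do not pair these libraries. The cause of these shifts was not tested. Each call rests on 3 libraries a group, and no member had under 80 reads in a library.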
